A study of Homo sapiens with 30 samples.

Results

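DDIT4 and TXNIP are stress-response genes of energy metabolism, and their transcripts were measured in human small airway epithelial (SAE) cells exposed to 2 kinds of nanoparticle. All probe sets whose platform symbol was exactly DDIT4 or TXNIP were taken: 1 for DDIT4 and 3 for TXNIP, called here the brightest, the middle and the dimmest by their mean over all arrays (11.91, 10.27 and 9.26). That makes 4 of the 22215 probe sets that are not array controls, for 2 of 11963 genes. Both genes had been chosen by their values at 1 h, where they were low at the high dose of each particle. What is said of DDIT4 and TXNIP in the 1 h arrays is therefore a description without a test. The 2 genes are tested only in comparisons between groups at 24 h. The cells, an SAE line from a commercial supplier grown in flasks, received multi-walled carbon nanotubes (MWCNT) or titanium dioxide (TiO2) nanobelts straight into the culture medium. At 1 h the groups were MWCNT at 10 and 100 ug/ml, TiO2 at 10 and 100 ug/ml and an unexposed control (0 ug/ml), and the same 5 groups were collected at 24 h. Each of the 10 groups held 3 biological replicates, 1 array each, so there were 30 arrays on an Affymetrix platform. No gene was altered, and all groups share the cell type and the submerged culture.

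DDIT4, also called REDD1, is a cytoplasmic protein that lowers the activity of mTORC1, the kinase complex that couples nutrient supply to growth, by acting through the TSC1-TSC2 complex. It is known to be induced by hypoxia, energy shortage, glucocorticoids and the stress factor ATF4. TXNIP is an alpha-arrestin that binds thioredoxin, a protein that keeps thiols reduced, and that takes glucose transporters off the cell surface. Its transcription follows the supply of sugar phosphates through the Mondo factors, and AMPK, the kinase that senses low energy, marks the protein for degradation. Transcripts alone were measured here, not the proteins.

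DDIT4 lies on chromosome 10 from 72273924 to 72276036 and TXNIP on chromosome 1 from 145992435 to 145996579 (GRCh38.p14, RefSeq). The 250 bases before the start of each gene are shown because the transcripts moved alike at 1 h while their order over time was opposite. They are from RefSeq, chr10:72273674-72273923 on the plus strand and chr1:145996580-145996829 on the minus strand, 5′ to 3′. Capitals mark matches to 12 motifs searched on both strands.
DDIT4: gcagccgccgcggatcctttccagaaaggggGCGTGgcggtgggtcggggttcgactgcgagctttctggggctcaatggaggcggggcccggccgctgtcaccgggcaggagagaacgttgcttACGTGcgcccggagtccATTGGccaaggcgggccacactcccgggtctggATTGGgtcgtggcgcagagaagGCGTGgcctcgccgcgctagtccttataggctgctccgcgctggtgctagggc
TXNIP: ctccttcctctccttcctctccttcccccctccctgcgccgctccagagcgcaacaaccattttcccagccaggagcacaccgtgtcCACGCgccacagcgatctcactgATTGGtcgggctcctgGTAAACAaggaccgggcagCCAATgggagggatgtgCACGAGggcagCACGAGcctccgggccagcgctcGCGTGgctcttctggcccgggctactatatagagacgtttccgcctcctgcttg

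The TXNIP stretch held CACGAG, an E-box-like string found in the carbohydrate response element that Mondo factors bind, at bases -88 to -83 and -77 to -72 from the start, present in 6.8% of 35114 RefSeq promoters. It also held GTAAACA, a site read by FOXO factors (3.4% of promoters), CCAAT on either strand (34.6%) and GCGTG on either strand (36.5%). The DDIT4 stretch held ACGTG, a core of the hypoxia response element (21.4%), GCGTG, and CCAAT on the minus strand at -108 to -104 and -75 to -71. The windows searched run from 250 bases before the start into the first bases of the transcript. In neither was there a match to CACGTG (7.3%), TGACG (24.6%), AGAACA (14.8%), TGATGNAA (3.6%), TATAAA (11.5%), GGGCGG (45.0%) or GCGTGGGCG (0.8%). ACGTG is part of CACGTG, and GCGTG is part of GCGTGGGCG. A match is a description of the letters and not evidence that a factor binds.

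The values are log2 expression per probe set, and 11963 genes were compared through the probe set of each with the highest mean. Array medians ran from 7.15 to 7.21. No 2 arrays correlated above 0.9987, so none was taken as a copy of another. That does not show that the arrays are independent, and each was counted as 1 biological replicate as described. Of the epithelial markers KRT18, KRT8 and CDH1 averaged 12.9, 11.7 and 7.93 over the 30 arrays, above the table's median of 7.18, and EPCAM averaged 6.90. Of the basal airway markers ITGB4 (9.54) and KRT5 (7.24) lay above that median and KRT14 (3.94) below it, and none of 3 secretory or 3 ciliated markers measured was above it. Immune PTPRC (3.50) and LYZ (3.18) were low, while 1 marker each of the immune (CD14), alveolar (SFTPC) and fibroblast (COL1A1) lists lay above the median. In whole-culture RNA, fewer cells of a type and less RNA per cell cannot be told apart.

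The first comparison asked what an hour of contact with a particle did to DDIT4. In control cultures at 1 h DDIT4 read 11.38, 11.36 and 11.19. With MWCNT at 10 ug/ml it read 11.20, 11.08 and 11.12, and at 100 ug/ml 10.53, 10.33 and 10.28. The 3 arrays at 100 ug/ml were below every control array, whereas those at 10 ug/ml overlapped the controls. The difference was -0.18 ± 0.10 (SE) at 10 ug/ml and -0.93 ± 0.10 at 100 ug/ml, where the level was 52.5% of control.

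With TiO2 at 10 ug/ml for 1 h DDIT4 read 11.29, 11.33 and 11.04, and at 100 ug/ml 10.69, 10.88 and 10.73. Again the high dose lay below all controls and the low dose among them. The differences from control were -0.09 ± 0.10 and -0.54 ± 0.10, and the high dose left 68.8% of the control level. Between the doses DDIT4 was lower at 100 than at 10 ug/ml with a difference of -0.75 ± 0.10 (MWCNT) and -0.45 ± 0.10 (TiO2). At 100 ug/ml the MWCNT arrays were all below the TiO2 arrays, with a difference of -0.39 ± 0.10, and at 10 ug/ml the particles overlapped (-0.09 ± 0.10).

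TXNIP moved in the same direction by less. On its brightest probe set controls at 1 h read 12.25, 12.18 and 12.23. MWCNT cultures read 12.16, 12.14 and 12.17 at 10 ug/ml and 11.92, 11.86 and 11.79 at 100 ug/ml. Both doses lay below every control array, the low dose narrowly, with differences of -0.06 ± 0.05 and -0.36 ± 0.05, and the high dose left 77.7% of the control level.

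TiO2 cultures read 12.14, 12.15 and 12.12 at 10 ug/ml and 11.87, 11.92 and 11.99 at 100 ug/ml on that probe set. All 6 were below the controls, by -0.08 ± 0.05 at the low dose and -0.29 ± 0.05 at the high dose, which left 81.5% of the control level. At 100 against 10 ug/ml the difference was -0.30 ± 0.05 with MWCNT and -0.21 ± 0.05 with TiO2. Unlike those of DDIT4, the arrays of the particles at 100 ug/ml overlapped for TXNIP, with a difference of -0.07 ± 0.05.

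How common such separations were among all genes gives the scale for these values, which chose the genes and support nothing further. All exposed arrays lay below all controls at 1 h for 11.0% of genes (MWCNT) and 7.44% (TiO2) at 100 ug/ml, and for 10.7% (MWCNT) and 9.24% (TiO2) at 10 ug/ml. The dose difference at 1 h separated the arrays downward for 6.96% of genes with MWCNT and 5.02% with TiO2, and MWCNT lay below TiO2 at 100 ug/ml for 4.32%.

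**Figure D1:**
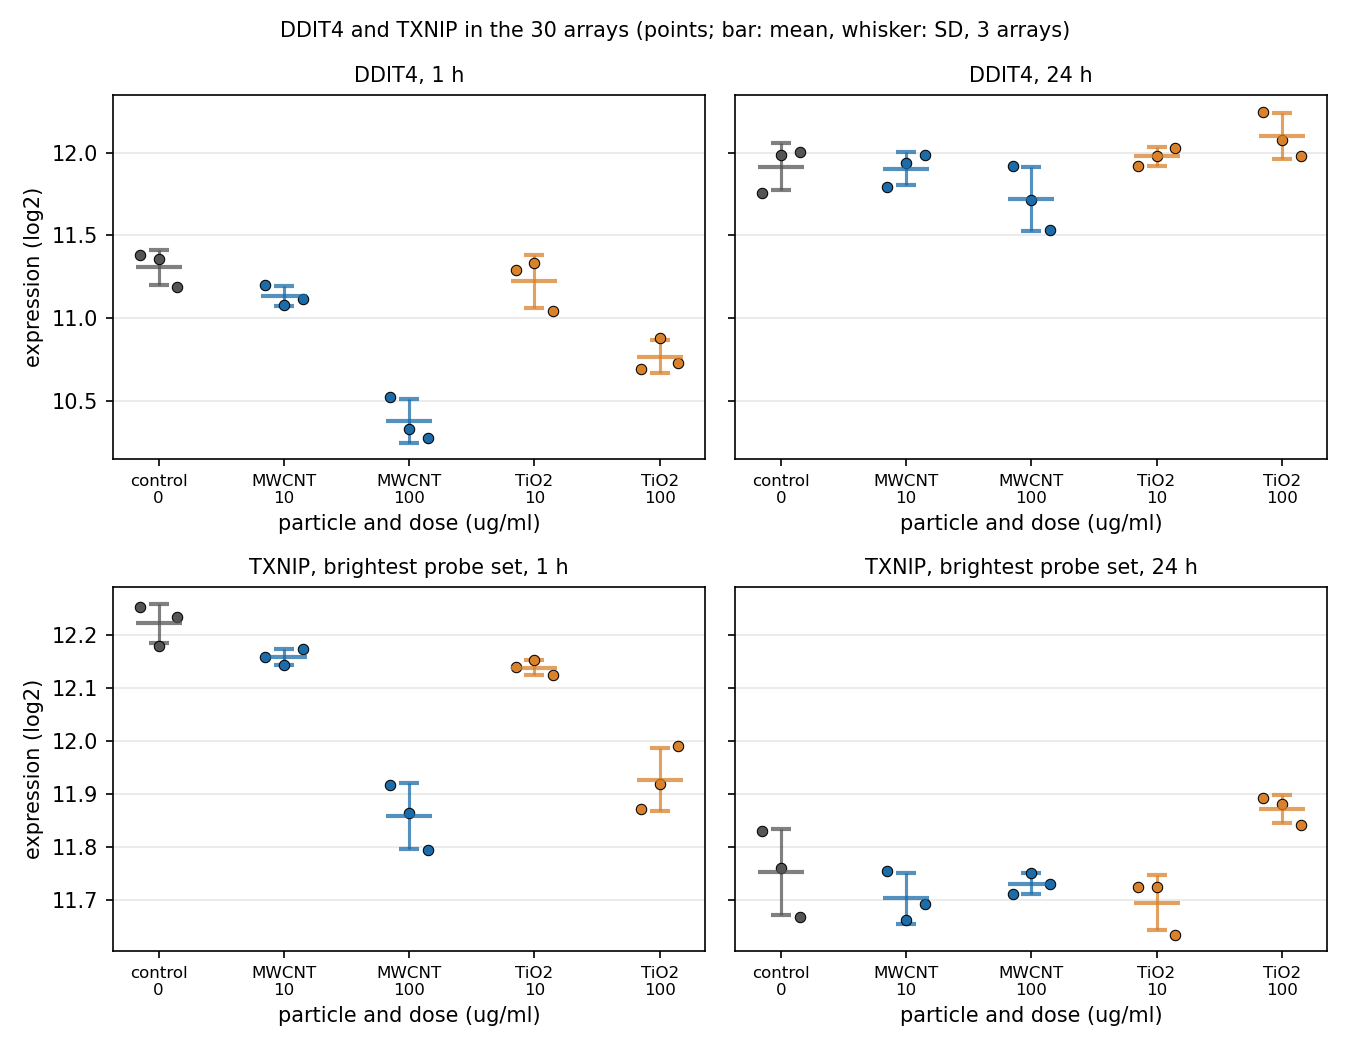
Expression (log2) of DDIT4 (top) and of the brightest TXNIP probe set (bottom) in each of 30 arrays, by particle and dose in ug/ml, at 1 h (left) and 24 h (right). Points are arrays, bars are group means and whiskers the SD of 3 arrays; at 1 h the 100 ug/ml arrays of either particle lie below the controls for both genes, and all DDIT4 arrays at 24 h lie above those at 1 h.

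The other TXNIP probe sets did not fully repeat this. On the middle set MWCNT at 100 ug/ml read 10.18, 10.24 and 10.23 against 10.59, 10.59 and 10.64 in controls, a difference of -0.39 ± 0.06. TiO2 at 100 ug/ml read 10.24, 10.40 and 10.37, a difference of -0.27 ± 0.06. At 10 ug/ml this probe set stood at -0.01 ± 0.06 with MWCNT and -0.04 ± 0.06 with TiO2, so its dose order matched that of the brightest set.

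On the dimmest set the order was different. The low dose read higher than control: 9.46, 9.46 and 9.53 with MWCNT and 9.62, 9.62 and 9.58 with TiO2, against 9.25, 9.40 and 9.41 in controls. These differences of 0.13 ± 0.09 and 0.26 ± 0.09 put all low-dose arrays above all controls, which happened for 9.31% of genes (MWCNT) and 6.23% (TiO2). At 100 ug/ml the probe set stood at -0.18 ± 0.09 (MWCNT) and -0.13 ± 0.09 (TiO2), and the TiO2 arrays overlapped the controls. Where the 3 sets bind along the transcript is not given in the sources used here.

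**Figure D2:**
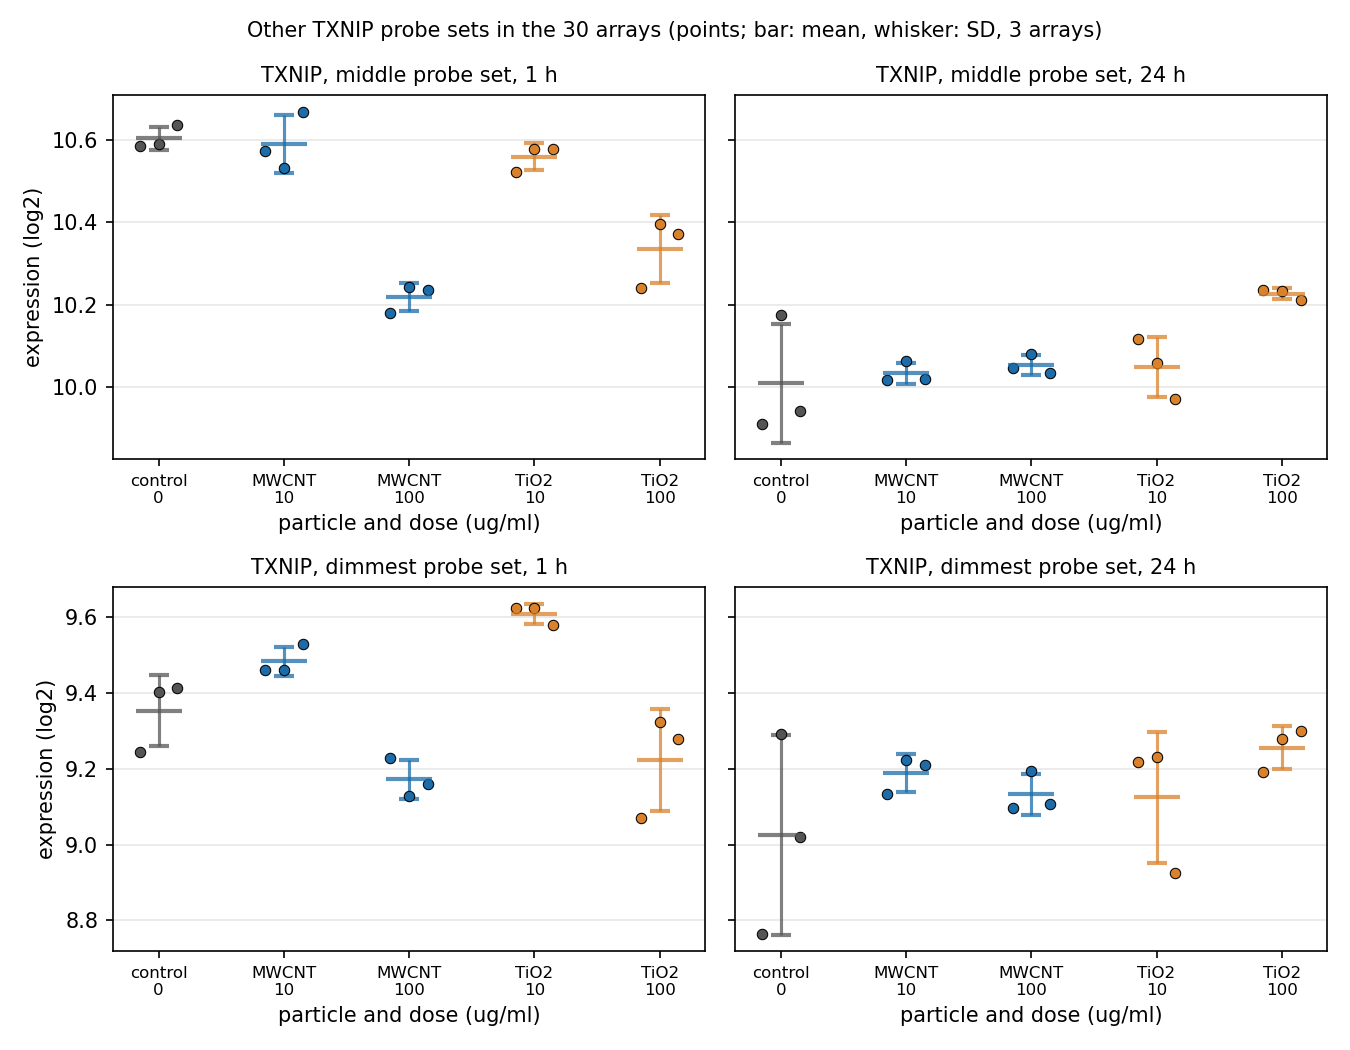
Expression (log2) of the TXNIP probe sets of middle (top) and lowest (bottom) brightness in each of 30 arrays, by particle and dose in ug/ml, at 1 h (left) and 24 h (right), with group means (bars) and SD of 3 arrays (whiskers). On the dimmest set the 10 ug/ml arrays at 1 h lie above the controls and control replicates at 24 h spread most, from 8.77 to 9.29.

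The controls themselves differed with time, in opposite directions for the 2 genes. DDIT4 averaged 11.92 ± 0.14 at 24 h and 11.31 ± 0.11 at 1 h (SD, n = 3 each), a difference of 0.61 ± 0.10 (SE). TXNIP averaged 11.75 ± 0.08 at 24 h and 12.22 ± 0.04 at 1 h on the brightest set, a difference of -0.47 ± 0.05, and the middle and dimmest sets differed by -0.60 ± 0.06 and -0.33 ± 0.09. The 24 h control arrays were all above the 1 h controls for 21.1% of genes and all below for 16.4%. Because 1 h controls helped to choose the genes, these differences carry no test.

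At 24 h the question was whether the genes still differed from controls, with group means of arrays that had no part in choosing them. The spread behind each SE and p was estimated from all 30 arrays, those at 1 h included. DDIT4 did not pass the test with either particle. MWCNT at 100 ug/ml read 11.92, 11.71 and 11.53 against 11.75, 11.99 and 12.01 in controls, which overlap. The difference was -0.19 ± 0.10 (95% interval -0.40 to 0.01, limma adjusted p = 0.903), and -0.10 without MWCNT replicate 3 or -0.29 without MWCNT replicate 1. TiO2 at 100 ug/ml read 12.25, 12.07 and 11.98, also overlapping the controls, at 0.18 ± 0.10 (-0.02 to 0.39, adjusted p = 0.200). Without control replicate 1 that difference was 0.10 and without TiO2 replicate 1 it was 0.11. At 10 ug/ml DDIT4 stood at -0.01 ± 0.10 with MWCNT (-0.21 to 0.19, adjusted p = 0.999) and 0.06 ± 0.10 with TiO2 (-0.14 to 0.26, adjusted p = 0.724).

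The 2 particles did differ from each other in DDIT4 at 24 h. At 100 ug/ml it averaged 11.72 ± 0.19 with MWCNT and 12.10 ± 0.14 with TiO2 (SD, n = 3 each), with no overlap between the arrays. The difference was -0.38 ± 0.10 (SE, 95% interval -0.58 to -0.18, limma adjusted p = 0.0142), so the MWCNT level was 76.9% of the TiO2 level. The adjusted p was 0.0974 without MWCNT replicate 3, 0.0798 without TiO2 replicate 1 and 0.0565 when no other group entered the fit. At 10 ug/ml the difference was -0.07 ± 0.10 (-0.27 to 0.13, adjusted p = 0.684).

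TXNIP at 24 h was highest in cultures with TiO2 at 100 ug/ml, which read 11.89, 11.88 and 11.84 against 11.83, 11.76 and 11.67 in controls. All 3 arrays were above the controls, yet the difference of 0.12 ± 0.05 did not pass (95% interval 0.03 to 0.21, limma adjusted p = 0.0774). On the middle set the same cultures read 10.24, 10.23 and 10.21 against 9.91, 10.17 and 9.94 in controls. There the difference of 0.22 ± 0.06 passed in a fit of all probe sets (adjusted p = 0.0192), while the dimmest set stood at 0.23 ± 0.09 (adjusted p = 0.109). The direction is the reverse of that at 1 h on each of the 3 probe sets. On the dimmest set, however, the arrays overlapped the controls at both times. On the brightest set the cultures with TiO2 at 100 ug/ml averaged 11.93 at 1 h and 11.87 at 24 h, while controls averaged 12.22 and 11.75.

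With MWCNT at 100 ug/ml TXNIP read 11.71, 11.75 and 11.73, within the control range, at -0.02 ± 0.05 (-0.11 to 0.07, adjusted p = 0.992). At 10 ug/ml it stood at -0.05 ± 0.05 with MWCNT (-0.14 to 0.04, adjusted p = 0.999) and -0.06 ± 0.05 with TiO2 (-0.15 to 0.04, adjusted p = 0.428).

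At 100 ug/ml TXNIP was lower with MWCNT than with TiO2 at 24 h, at 11.73 ± 0.02 and 11.87 ± 0.03 (SD, n = 3 each), without overlap. The difference of -0.14 ± 0.05 passed (95% interval -0.23 to -0.05, limma adjusted p = 0.0418), but it passed no longer when any 1 of the 6 arrays was left out (adjusted p from 0.0650 to 0.121). On the middle set it was -0.17 ± 0.06 (adjusted p = 0.0588) and on the dimmest -0.12 ± 0.09 (adjusted p = 0.420). At 10 ug/ml the particles stood at 0.01 ± 0.05 (-0.08 to 0.10, adjusted p = 0.936).

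Between the doses at 24 h, neither gene passed. TXNIP with TiO2 was higher at 100 than at 10 ug/ml by 0.18 ± 0.05 with no overlap (adjusted p = 0.0571), the low dose reading 11.72, 11.72 and 11.63. DDIT4 with TiO2 stood at 0.12 ± 0.10 (-0.08 to 0.32, adjusted p = 0.730). With MWCNT, 100 against 10 ug/ml gave -0.18 ± 0.10 for DDIT4 (-0.38 to 0.02) and 0.03 ± 0.05 for TXNIP (-0.07 to 0.12), both with an adjusted p of 1.00.

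Among all genes at 24 h, limma called 13.2% with TiO2 at 100 ug/ml, 6.05% with TiO2 at 10 ug/ml and 0% with MWCNT at 100 and at 10 ug/ml, where 661 and 389 genes had an unadjusted p under 0.05. It called 12.2% between MWCNT and TiO2 at 100 ug/ml and 4.88% at 10 ug/ml. Between the doses it called 0.986% with TiO2 and 0% with MWCNT, with 268 genes at an unadjusted p under 0.05. All TiO2 arrays at 100 ug/ml lay above all controls for 11.7% of genes and above all low-dose arrays for 7.24%, and all MWCNT arrays lay below all TiO2 arrays at 100 ug/ml for 14.3%. The passing of both genes between the particles at 100 ug/ml is to be read against that 12.2%. Epithelial CDH1, KRT18 and KRT8, basal KRT5, secretory MUC5B and fibroblast COL1A1 and DCN were among the genes called with TiO2 at 100 ug/ml for 24 h, and their part in the DDIT4 and TXNIP values was not tested.

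**Figure D3:**
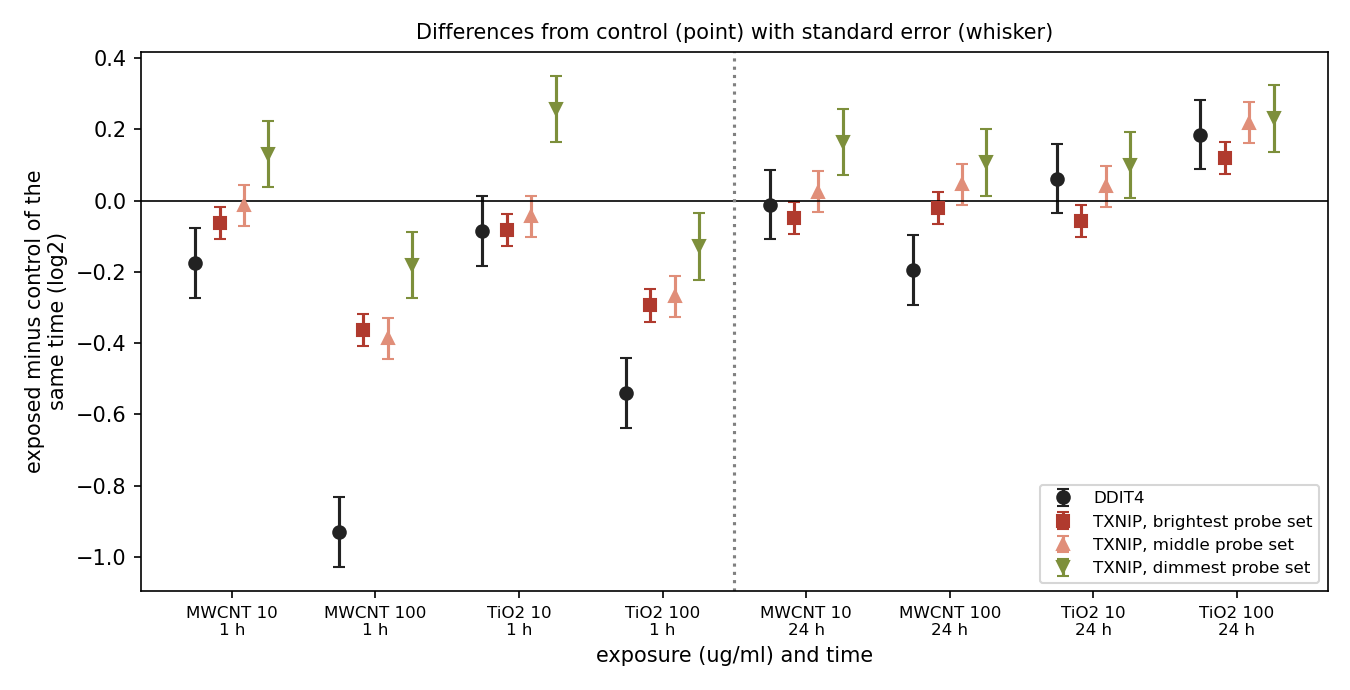
Difference from the control of the same time (log2, vertical axis) for DDIT4 and the 3 TXNIP probe sets in 8 exposures by dose in ug/ml and time (horizontal axis), with SE as whiskers. At 100 ug/ml for 1 h DDIT4 is at -0.93 (MWCNT) and -0.54 (TiO2), and at 24 h the 2 genes lie above 0 with TiO2 at 100 ug/ml and near or below 0 with MWCNT on the tested probe sets.

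Ranked by mean over the 10 groups, DDIT4 had all 5 of the 24 h groups above all 5 of the 1 h groups. The order ran TiO2 100, TiO2 10, control, MWCNT 10 and MWCNT 100 at 24 h, whose neighbours overlapped, and then control, TiO2 10 and MWCNT 10 at 1 h, which overlapped as well. Below these, TiO2 100 at 1 h (10.77 ± 0.10) and MWCNT 100 at 1 h (10.38 ± 0.13) each stood apart from the next group. The group means of DDIT4 spanned 1.72, from 10.38 to 12.10.

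TXNIP ran almost the other way over time and spanned 0.53. Its 3 highest groups were control (12.22 ± 0.04), MWCNT 10 (12.16 ± 0.01) and TiO2 10 (12.14 ± 0.01) at 1 h, separated from all others by a gap of 0.21. Then came TiO2 100 at 1 h, TiO2 100 at 24 h and MWCNT 100 at 1 h, followed by control, MWCNT 100, MWCNT 10 and TiO2 10 at 24 h. From TiO2 100 at 1 h downward every pair of neighbours had overlapping arrays. The lowest TXNIP level at 1 h, with MWCNT at 100 ug/ml, was thus no lower than the level unexposed cultures had at 24 h (11.86 ± 0.06 and 11.75 ± 0.08), whereas for DDIT4 the level at 1 h with MWCNT (10.38 ± 0.13) was far from that of 24 h controls (11.92 ± 0.14).

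Over the 10 group means DDIT4 and TXNIP had a Pearson r of -0.47, and over the 8 differences from the control of the same time 0.94. The 4 differences of a time share their control arrays, and 1 h values chose both genes, so neither r is a test.

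Other genes were ranked by likeness to each, with no test, among genes above the table's median whose values spanned at least 0.5. Over the 10 group means (1165 genes) those most like DDIT4 were BRF2 (0.94), RNF113A (0.94), TSC22D3 (0.94), ZNF277 (0.94) and NUDT18 (0.93). TSC22D3, known as GILZ and induced by glucocorticoids, averaged 12.00 ± 0.08 in 24 h controls and 11.14 ± 0.10 in 1 h controls, and 10.80 ± 0.11 with MWCNT at 100 ug/ml for 1 h. It is on the list of the glucocorticoid receptor and its targets read below. Of 20 measured genes on that list, 3 were called higher and 6 lower in 24 h than in 1 h controls (median -0.11). Of all 11963 genes 2307 were called higher and 1489 lower there. The genes most like TXNIP over the 10 group means were ID3 (0.93), TNFRSF1A (0.91), MT2A (0.90), GPN2 (0.90) and SLC35C1 (0.90). ID3, an inhibitor of helix-loop-helix factors, averaged 8.79 ± 0.06 in 24 h controls and 9.37 ± 0.06 in 1 h controls.

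Over the 8 differences from control other genes were nearest. For DDIT4 (250 genes) they were SLC30A1 (0.95), which exports zinc, and the metal-binding metallothionein genes MT2A (0.88), MT1G (0.87), MT1HL1 (0.87) and MT1F (0.87). For TXNIP (251 genes) they were DDIT4 (0.94), SLC39A4 (0.90), which imports zinc, SLC30A1 (0.89), MT1G (0.84) and MT2A (0.81). TXNIP could not appear among the genes like DDIT4 because its own differences spanned less than 0.5. Metallothionein transcripts are alike in sequence, so their probe sets may not be separate measurements. How far they share targets was not checked.

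With MWCNT at 100 ug/ml for 1 h SLC30A1 stood at -0.66 ± 0.07, MT2A at -0.43 ± 0.09 and SLC39A4 at -0.23 ± 0.06, and with TiO2 they stood at -0.48 ± 0.07, -0.22 ± 0.09 and -0.18 ± 0.06. At 24 h with TiO2 at 100 ug/ml MT2A (0.39 ± 0.09), MT1G (0.42 ± 0.08) and SLC39A4 (0.32 ± 0.06) were higher than DDIT4 (0.18 ± 0.10) and TXNIP (0.12 ± 0.05), while SLC30A1 stood at -0.07 ± 0.07.

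**Figure D4:**
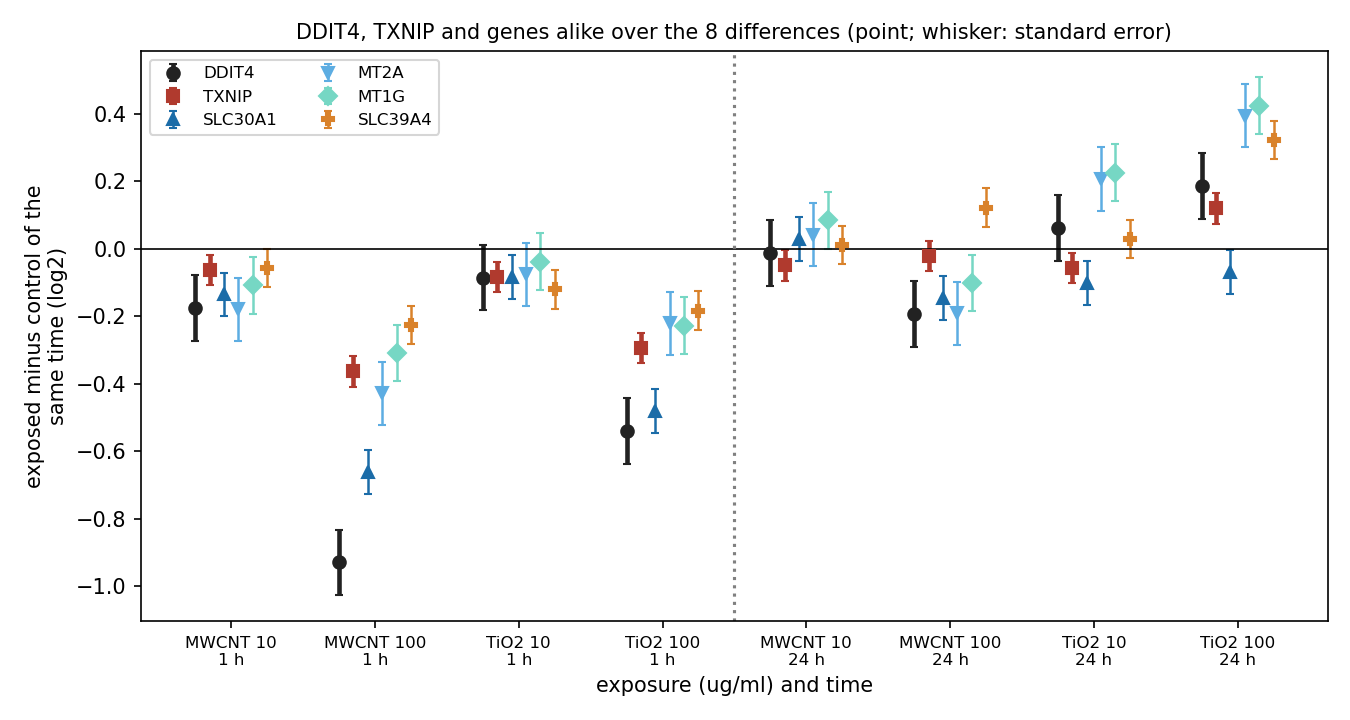
Difference from the control of the same time (log2, vertical axis) with SE for DDIT4, TXNIP and 4 of the genes most like them over 8 exposures (dose in ug/ml and time on the horizontal axis). All 6 lie below 0 with either particle at 100 ug/ml for 1 h, and all but SLC30A1 lie above 0 with TiO2 at 100 ug/ml for 24 h.

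Genes around DDIT4 and TXNIP were then read from 9 lists. At 1 h limma called 1.70% of all genes with MWCNT at 100 ug/ml, 0.0669% with MWCNT at 10 ug/ml, 2.12% with TiO2 at 100 ug/ml and 0.711% with TiO2 at 10 ug/ml. The median difference of all genes lay between -0.03 and -0.02 in each of these. When only genes above the table's median were fitted, MWCNT and TiO2 at 100 ug/ml gave 255 and 292 calls of 6923. At 10 ug/ml that fit gave 10 and 104. Most called list genes lay above that median, so the list shares below are to be read against both backgrounds. With MWCNT at 10 ug/ml no list had a called member.

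Of 22 measured genes of mTORC1 and its regulators, the complex that DDIT4 restrains, 0 were called with MWCNT at 100 ug/ml (median -0.07) and 1 rose with TiO2 at 100 ug/ml (median -0.08). It was RRAGC, a Rag GTPase that brings mTORC1 to the lysosome, at 0.25 ± 0.06 (adjusted p = 0.0313). It rose with TiO2 at 10 ug/ml as well, by 0.29 ± 0.06. None of 16 AMPK subunits, kinases and substrates was called in any exposure at 1 h, and none of 18 genes of the thioredoxin system.

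Among 7 measured Mondo factors and alpha-arrestins, the group of TXNIP and its regulators, ITCH, a ubiquitin ligase that acts on TXNIP, rose with TiO2, by 0.57 ± 0.12 at 100 ug/ml and 0.49 ± 0.12 at 10 ug/ml. The Mondo factors themselves did not pass. Of 22 genes of glucose uptake and entry into glycolysis, 1 rose with each particle: PFKFB3, which makes the activator of phosphofructokinase, by 0.61 ± 0.09 (adjusted p = 6.30e-05) for MWCNT and 0.33 ± 0.09 (adjusted p = 0.0356) for TiO2 at 100 ug/ml.

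Of 20 measured genes on the list of the glucocorticoid receptor and its targets, 4 changed with MWCNT at 100 ug/ml for 1 h. Of these 3 were higher and 1 lower (list median 0.05). The kinase SGK1 rose by 0.42 ± 0.10, the repressor BCL6 by 0.60 ± 0.08 and the CDC42 effector CDC42EP3 by 0.63 ± 0.07 (adjusted p = 8.43e-07), and TSC22D3 fell by 0.34 ± 0.06 (adjusted p = 0.00290). With TiO2 at 100 ug/ml 4 rose and 0 fell (median 0.07). They were SGK1 (0.51 ± 0.10), BCL6 (0.81 ± 0.08), CDC42EP3 (0.70 ± 0.07) and the zinc finger factor ZBTB16 (1.16 ± 0.21), while TSC22D3 stood at -0.04 ± 0.06. With TiO2 at 10 ug/ml ZBTB16 alone of the 20 rose, by 1.02 ± 0.21.

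Among 16 FOXO targets and insulin signalling genes, 4 rose and 0 fell with either particle at 100 ug/ml for 1 h (25.0%, medians 0.08). The insulin receptor adaptor IRS2 rose by 0.45 ± 0.06 with MWCNT and 0.39 ± 0.06 with TiO2. The p300-binding CITED2 rose by 1.05 ± 0.12 and 0.81 ± 0.12, and BCL6, which is on this list too, was also called. The remaining call was the pseudokinase TRIB1 with MWCNT (0.57 ± 0.11) and the factor FOXO3 with TiO2 (1.22 ± 0.28), whose controls spread widely (8.32 ± 0.49, SD, n = 3). FOXO3 also rose with TiO2 at 10 ug/ml, by 1.22 ± 0.28.

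Of 23 genes on the list of ATF4 and its targets, the stress factor ATF3 rose by 0.70 ± 0.11 (MWCNT) and 0.86 ± 0.11 (TiO2) at 100 ug/ml. DDIT3, the CHOP factor, fell by 0.29 ± 0.07 and 0.38 ± 0.07. With TiO2 the glycoprotein hormone STC2 rose by 0.21 ± 0.06 and the chromatin-associated NUPR1 fell by 0.28 ± 0.07, so 2 rose and 2 fell (17.4%). With MWCNT it was 1 and 1 (8.7%), and the medians were -0.06 and -0.02. Of 21 targets of the hypoxia-inducible factors, 2 rose and 0 fell with either particle (9.5%). The vasodilator peptide ADM rose by 0.34 ± 0.08 with MWCNT and 0.30 ± 0.08 with TiO2, and the histone demethylase KDM3A by 0.51 ± 0.06 and 0.50 ± 0.06.

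Over the 9 lists 13 entries were called for MWCNT at 100 ug/ml and 17 for TiO2 at 100 ug/ml, with BCL6 counted in 2 lists. These counts fell to 7 and 10 when no group but the pair compared entered the fit, which called 84 and 105 of all 11963 genes. The TiO2 count was 11 without control replicate 1, 11 without control replicate 2 and 11 without TiO2 replicate 3. The 4 calls with TiO2 at 10 ug/ml were lost without control replicate 1 or 2 or any 1 of the TiO2 replicates. For the fits that left out an array, the calls among all genes are not given here.

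**Figure D5:**
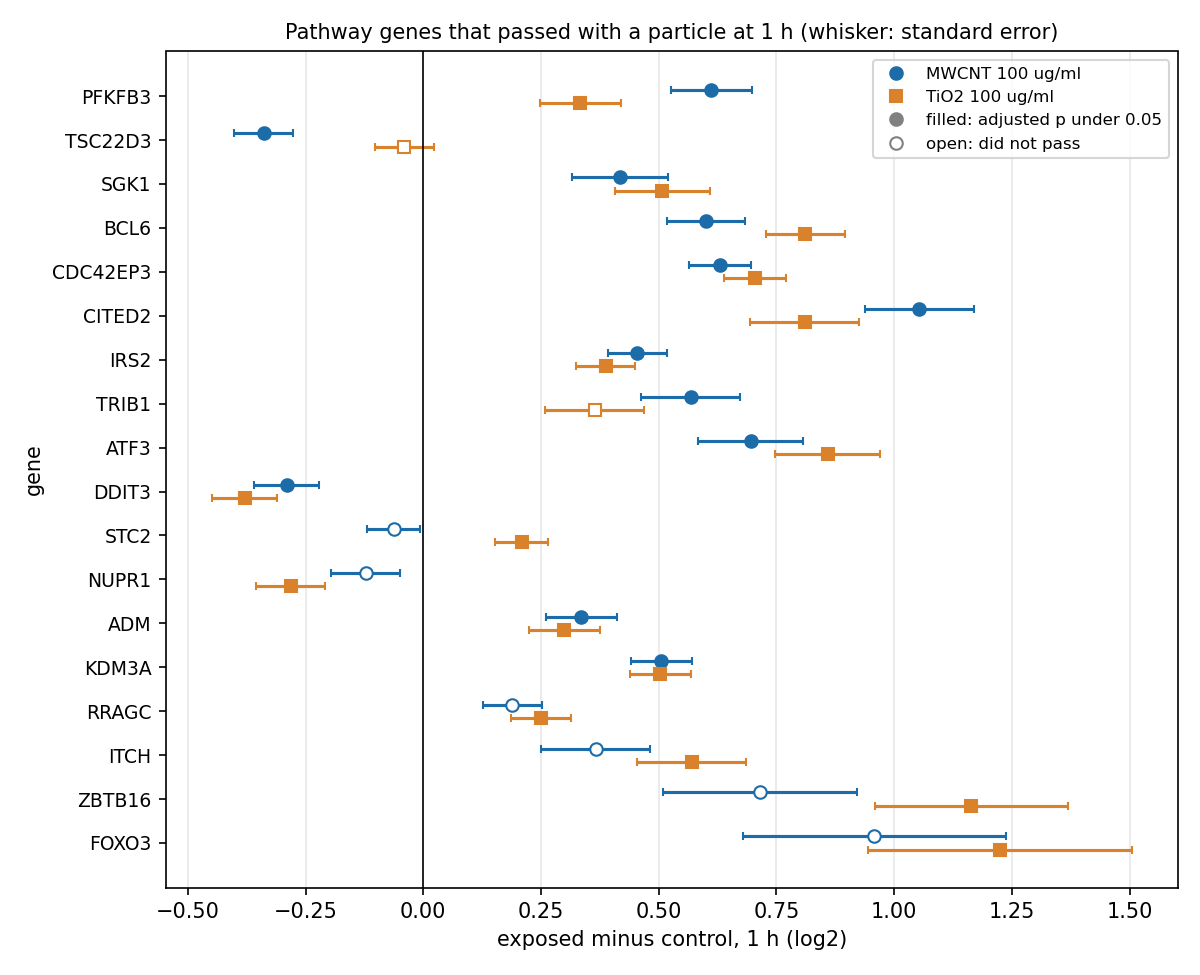
Difference from control at 1 h (log2, horizontal axis) with SE for the 18 list genes called with either particle at 100 ug/ml (vertical axis), MWCNT as circles and TiO2 as squares, filled where the adjusted p is under 0.05. TSC22D3, DDIT3 and NUPR1 are the genes called below 0, and most others lie above 0 with both particles.

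At 24 h no list had a called member with MWCNT at either dose, as no gene was called in the fit without array weights. With array weights, an alternative fit, 722 of 11963 genes were called with MWCNT at 100 ug/ml and 8 at 10 ug/ml. Without array weights, 13.2% of all genes were called with TiO2 at 100 ug/ml and 6.05% at 10 ug/ml. When only genes above the table's median were fitted, TiO2 gave 1521 and 670 calls of 6923. With TiO2 at 100 ug/ml, of 16 AMPK genes 1 rose and 4 fell (31.2%, median -0.06), including the acetyl-CoA carboxylases ACACA, at -0.22 ± 0.06, and ACACB, at -0.33 ± 0.08 with its other 2 probe sets from -0.49 to -0.48. TBC1D4, a substrate of AKT and AMPK that holds glucose transporters inside the cell, stood at -0.37 ± 0.10 on a probe set below the table's median. CAMKK2, a kinase upstream of AMPK, rose by 0.42 ± 0.11, while its other probe set stood at -0.02. With TiO2 at 10 ug/ml CAMKK2 rose by 0.42 ± 0.11 (other probe set 0.01), and the coactivator PPARGC1A fell by 0.34 ± 0.10 and CAB39, a partner of the AMPK kinase LKB1, by 0.24 ± 0.07.

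TXN, the thioredoxin that TXNIP binds, was the 1 of 18 thioredoxin genes called with TiO2 at 100 ug/ml, at 12.56 ± 0.02 against 12.40 ± 0.02 in controls (SD, n = 3 each). Its difference was 0.16 ± 0.05 (SE, adjusted p = 0.0392) and that of its other probe set 0.27. The 22 mTORC1 genes had 1 call, TSC1, a subunit of the complex through which DDIT4 acts, which fell by 0.19 ± 0.06 (adjusted p = 0.0466). The shares called were 5.6% of the thioredoxin list and 4.5% of the mTORC1 list, against 13.2% of all genes. None of the 7 Mondo and alpha-arrestin genes was called. Of 22 glucose genes 4 rose and 2 fell (27.3%, median 0.00). The glucose transporter SLC2A1 fell by 0.21 ± 0.06 and the phosphofructokinase PFKM by 0.16 ± 0.05, and PFKFB1 (0.28 ± 0.08) and HK3 (0.26 ± 0.08) rose on probe sets below the table's median. The other 2 called genes, named after their values were seen, were the phosphofructokinase PFKP, which rose by 0.22 ± 0.07 (adjusted p = 0.0406) on a probe set above that median, and the glucose transporter SLC2A3, which rose by 0.30 ± 0.10 on one below it.

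Of 23 genes on the list of ATF4 and its targets 5 fell and 0 rose with TiO2 at 100 ug/ml for 24 h (21.7%, median -0.09). Of all genes 13.2% were called, 514 higher and 1063 lower, with a median of -0.03. When only genes above the table's median were fitted, 1521 of 6923 were called, with a median of -0.07. The largest fall on the list was that of NUPR1, by 0.46 ± 0.07 (adjusted p = 0.000467), with the cystine transporter SLC7A11 at -0.32 ± 0.06, STC2 at -0.27 ± 0.06 and the asparagine synthetase ASNS at -0.17 ± 0.03. At 10 ug/ml SLC7A11 (-0.22 ± 0.06) and ASNS (-0.13 ± 0.03) were called. Between the particles at 100 ug/ml, where DDIT4 was lower with MWCNT, 7 of the 23 were called higher with MWCNT and 0 lower (30.4%, median 0.15). Of all genes 12.2% were called there, 921 higher and 544 lower, with a median of 0.03. When only genes above the table's median were fitted, 1464 of 6923 were called, with a median of 0.06.

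Of 20 genes on the list of the glucocorticoid receptor and its targets 2 rose and 2 fell with TiO2 at 100 ug/ml for 24 h (20.0%). Of all genes 13.2% were called, and 1521 of 6923 when only those above the table's median were fitted. The phosphatase DUSP1 rose by 0.39 ± 0.06, whereas SGK1 fell by 0.44 ± 0.10 after its rise at 1 h. Of 21 hypoxia targets 2 rose and 3 fell (23.8%), with the circadian repressor BHLHE40 at 0.46 ± 0.08, NDRG1 at -0.34 ± 0.07 and the MYC antagonist MXI1 at -0.24 ± 0.06. Of 16 FOXO and insulin genes TRIB2 rose, by 0.43 ± 0.09 on a probe set below the table's median, and the mitochondrial kinase PINK1 fell by 0.23 ± 0.06 (12.5%). Together 29 entries were called with TiO2 at 100 ug/ml and 10 at 10 ug/ml. Both counts were 0 when no group but the pair compared entered the fit. Of all 11963 genes that fit called 16 with TiO2 at 100 ug/ml and 0 at 10 ug/ml. The list count at 100 ug/ml was 16 without TiO2 replicate 2 and 15 without replicate 3. The list count at 10 ug/ml was 2 without control replicate 1, 17 without control replicate 2, 3 without TiO2 replicate 1 and 0 without TiO2 replicate 3. The calls among all genes in the fits that left out an array are not given here, so these list counts have no such scale.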

How the data were processed

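Total RNA from SAE cells was labelled and hybridised to Affymetrix arrays, per the labels' protocols. The deposited log2 values, 1 per probe set and array, were made by the authors with RMA (a robust averaging of probes), per the submitters' processing notes; its version and a genome build are not given in the sources used here. RMA quantile-normalises the arrays to each other, which can hide a shift shared by all genes. Probe sets with 1 symbol were named from the platform annotation. Of 22277 probe sets, 62 were array controls and 19064 had 1 symbol; 1043 had several and 2108 none. Each of 11963 genes was tested through its brightest probe set. A mean per group was fitted over all 10 groups in limma 3.58.1 (R 4.3.3), with lmFit, eBayes, two-sided tests and Benjamini-Hochberg adjustment over all genes, threshold 0.05. The TXNIP probe sets not tested that way were fitted with all 22215 probe sets. An exact permutation test of 3 against 3 arrays cannot go below p = 0.1. The number of arrays limits the precision.

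Members, lists and the naming rule were chosen with earlier results of these data known. Named genes are DDIT4 and TXNIP, the 5 genes most like each by 2 measures, and up to 4 called members per list and comparison with a control. The alternatives were a filter on dim genes, all probe sets, only the compared groups, cyclic loess, array weights (statmod 1.5.0), a variance trend, the replicate number as a block, other probe sets, and leaving out each array. For the list counts, leaving out arrays was added after the data were examined. The replicate numbers were not taken as pairs: in 0 of 17 comparisons did the deviations of all same-numbered arrays correlate above 0.1, with single correlations from -0.248 to 0.3305. Those of differently numbered arrays ran from -0.3494 to 0.3265. A cut that all pairs must pass is strict and cannot show that the replicates are unpaired. The fit with the replicate number as a block is given below. The fit was tested on simulated data. Promoters and figures used Python 3.11.15 and matplotlib 3.10.9.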

Additional observations from a re-analysis of the deposited data

Results flagged for a closer look

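TXNIP with TiO2 at 100 ug/ml had all exposed arrays below all controls at 1 h and all above them at 24 h. On the brightest probe set the difference was -0.2943 at 1 h and 0.1192 at 24 h, and on the middle probe set -0.2685 at 1 h and 0.2185 at 24 h. The difference between the times was not tested, because the 1 h arrays chose the gene. Of 16 combinations of probe set and exposure looked at, 2 showed such a reversal, and both probe sets are of the same gene. With TiO2 at 100 ug/ml all exposed arrays lay below all controls at 1 h for 7.44% of genes. At 24 h they lay above all controls for 11.7% of genes. The share of genes with both was not counted.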

How the results depend on the processing

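The 1 h differences of DDIT4 and TXNIP kept their direction under every alternative of processing on the tested probe sets, with 2 exceptions: TXNIP for MWCNT against TiO2 at 10 ug/ml was -0.0021 after cyclic loess, and DDIT4 with TiO2 at 10 ug/ml was 0.0047 without TiO2 replicate 3. On the middle TXNIP probe set the 1 h differences were -0.3858 (MWCNT 100), -0.0131 (MWCNT 10), -0.2685 (TiO2 100) and -0.0444 (TiO2 10). On that set they were -0.3727 (MWCNT dose), -0.2241 (TiO2 dose), -0.1173 (MWCNT 100 against TiO2 100) and 0.0312 (MWCNT 10 against TiO2 10). The dimmest set gave -0.1804, 0.1303, -0.1285, 0.2561, -0.3107, -0.3846, -0.0519 and -0.1257 in the same order. The control over time gave -0.5961 and -0.3271 on these sets and -0.5455 with array weights.

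At 24 h, array weights called 722 of all 11963 genes with MWCNT at 100 ug/ml and 8 at 10 ug/ml, against 0 at both doses without weights. They put DDIT4 with MWCNT at 100 ug/ml at -0.2795 (adjusted p = 0.0274). Leaving out arrays gave -0.2930 to -0.1008 there and 0.1039 to 0.2450 for DDIT4 with TiO2 at 100 ug/ml, and neither passed. TXNIP with TiO2 at 100 ug/ml passed at 0.1192 with the filter on dim genes (adjusted p = 0.0453) and the variance trend (0.0422), at 0.1919 with array weights and at 0.2185 on the middle probe set; leaving out arrays gave 0.0769 to 0.1578, passing without control replicate 1. Its dose difference passed at 0.1770 with the filter (adjusted p = 0.0203) and the trend (0.0132), at 0.1733 after cyclic loess and at 0.1945 with array weights. DDIT4 for MWCNT against TiO2 at 100 ug/ml was -0.3792 (adjusted p = 0.0565) with only the compared groups, and -0.4776 to -0.2854 leaving out arrays. TXNIP there was -0.1410 with all probe sets (adjusted p = 0.0570) and only the compared groups (0.0671), -0.1735 and -0.1237 on other probe sets, and -0.1562 to -0.1305 leaving out arrays.

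Differences near 0 at 24 h changed sign. TXNIP with MWCNT at 100 ug/ml was 0.0525 with array weights, 0.0450 and 0.1067 on other probe sets, and -0.0641 to 0.0168 leaving out arrays. With MWCNT at 10 ug/ml it was 0.0118, 0.0240 and 0.1633, with TiO2 at 10 ug/ml 0.0405 and 0.0988, for the MWCNT dose -0.0566, and for the particles at 10 ug/ml -0.0258 after cyclic loess, -0.0166 on the middle probe set and -0.0218 to 0.0286 leaving out arrays. For DDIT4 at 10 ug/ml, leaving out arrays gave -0.0926 to 0.0450 (MWCNT) and -0.0194 to 0.1060 (TiO2). The cause of these changes was not tested.

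The replicate number as a block changed no call of either gene: for MWCNT against TiO2 at 100 ug/ml and 24 h DDIT4 kept -0.3792 (adjusted p = 0.0142) and TXNIP -0.1410 (adjusted p = 0.0427). Calls over the 9 lists fell with only the compared groups to 7 (MWCNT 100, 1 h), 10 (TiO2 100, 1 h), 2 (TiO2 10, 1 h), 0 (TiO2 100, 24 h) and 0 (TiO2 10, 24 h). Of all 11963 genes this setting called 84, 105, 53, 16 and 0 in the same order. Array weights gave list counts of 7 for TiO2 10 at 1 h, and 55 and 29 for TiO2 100 and 10 at 24 h, the last 4 after cyclic loess. Of all genes array weights called 195, 3081 and 2170 in the same order, and cyclic loess 159 in the last. Leaving out arrays gave list counts of 11 to 16 and 0 to 5 for TiO2 100 and 10 at 1 h, and 15 to 27 and 0 to 17 at 24 h. The calls among all genes in those fits are not given here, so these ranges cannot be set against them.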
